A study of Mus musculus with 22 samples.

Results

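The genes described here are 10 components of bone morphogenetic protein (BMP) signalling: the ligands Bmp2, Bmp4, Bmp6 and Bmp7, the secreted antagonists Grem1 and Nog, and the inhibitor of DNA binding factors Id1, Id2, Id3 and Id4. They were chosen by symbol from the 30170 genes of the count table, in which each of the 10 has a row. RNA-seq was performed on C3H 10T1/2 cells, a mouse mesenchymal stem cell line that forms adipocytes when given adipogenic hormones. Cell lines expressing WT DNMT3A1, W330R or the double mutant W330R-R181E were compared in 22 libraries, 2 for each of 11 conditions. WT and W330R cells were sampled undifferentiated, with no treatment, and on days 2, 4 and 6 of adipocyte differentiation, whereas W330R-R181E cells were sampled only on days 2, 4 and 6. All differentiated cells received serum with isobutylmethylxanthine, dexamethasone, insulin and troglitazone for 2 days and insulin in serum from then on. DNMT3A1 is the long form of a de novo DNA methyltransferase. W330R changes a residue of its PWWP domain, which reads methylated histone H3, and R181E a residue of its N-terminal part. The labels give neither the promoter that drove DNMT3A1, nor whether a line was 1 clone, nor whether replicates were separate cultures, so that p-values measure the spread between these libraries, which may be technical. The column names of the 6 double mutant libraries carry R181A where the labels carry R181E, and the name of the labels is used here.

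BMPs are secreted dimers of the TGF-β family that bind pairs of type I and type II serine/threonine kinase receptors. The receptors phosphorylate Smad1, Smad5 and Smad9, which enter the nucleus with Smad4 and switch on target genes, the Id genes among the most direct of them. Gremlin 1, the product of Grem1, and noggin bind the ligands outside the cell and keep them from the receptors. ID proteins have a helix-loop-helix but no basic DNA-binding region, and hold E proteins and other bHLH factors away from DNA. In C3H 10T1/2 cells, BMP4 is known for committing cells to the adipocyte lineage, and gremlin 1 is known to restrain the same step in preadipocytes.

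The RefSeq promoter table (GRCm38.p6) holds 6 of the 10 members, namely Bmp4, Bmp6, Grem1, Id2, Id3 and Id4. The 250 bases before the start site are shown for Bmp4, Grem1 and Id4, the 3 members that passed a test between genotypes. CpG sites, the substrate of DNMT3A, are in capitals, and each sequence runs 5′ to 3′ in the direction of its gene. Bmp4 lies at chr14:46390670-46390919 on the minus strand, Grem1 at chr2:113758649-113758898 on the minus strand and Id4 at chr13:48260866-48261115 on the plus strand.
Bmp4: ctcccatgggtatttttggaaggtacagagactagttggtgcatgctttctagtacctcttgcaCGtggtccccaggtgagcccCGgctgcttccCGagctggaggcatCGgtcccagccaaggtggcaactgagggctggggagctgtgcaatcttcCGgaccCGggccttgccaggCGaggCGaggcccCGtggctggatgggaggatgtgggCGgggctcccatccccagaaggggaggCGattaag
Grem1: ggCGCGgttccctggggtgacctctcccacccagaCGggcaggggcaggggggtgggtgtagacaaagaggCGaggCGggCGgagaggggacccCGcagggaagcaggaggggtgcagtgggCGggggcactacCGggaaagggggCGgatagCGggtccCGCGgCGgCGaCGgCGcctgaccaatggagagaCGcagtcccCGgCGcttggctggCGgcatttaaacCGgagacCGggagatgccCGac
Id4: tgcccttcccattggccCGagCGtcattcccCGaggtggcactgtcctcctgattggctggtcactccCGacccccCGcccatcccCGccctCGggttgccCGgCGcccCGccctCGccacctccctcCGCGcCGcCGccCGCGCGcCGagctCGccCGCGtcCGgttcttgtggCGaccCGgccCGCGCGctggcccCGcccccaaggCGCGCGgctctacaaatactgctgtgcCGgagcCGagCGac

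The Id4 window held 35 CpG sites, a number that 2.97% of the 32851 promoters of the table reached. The Grem1 window held 24, reached by 12% of promoters, and the Bmp4 window 11, reached by 35.6%, against a median of 6 over the table. The windows of Bmp6, Id2 and Id3 held 22, 18 and 18. DNA methylation was not measured in these libraries. The letters GGCGCC, the GC-rich element through which Smad1 and Smad5 act on Id genes, were searched on both strands and occur in 9.59% of promoters. They occurred once each in the windows of Grem1, Id2 and Id4, and in none of the other three. E-boxes (CANNTG), the sites that E proteins bind and ID proteins keep free, numbered 3 in Bmp4, 2 in Bmp6 and 1 in Id2, with 66.2% of promoters holding at least 1. A cAMP response element (TGACGTCA, 1.55% of promoters) and a TATA box (TATAAA, 12.4%), searched in the same way, were not found in any of the 6 windows. No motif of the list contains another.

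Depth ranged from 8859501 to 47453908 counted reads per library with a median of 19355792, and 3 counts, the smallest value read as a level here, corresponded to 0.0583 to 0.347 CPM. CPM stands for counts scaled to a library of fixed size, here after TMM scaling of the library sizes. Dnmt3a, the gene of the altered protein, ranged from 104.8 to 346.5 CPM in the 8 WT libraries, from 87.4 to 325.9 in the 8 W330R libraries and from 68.5 to 147.8 in the 6 W330R-R181E libraries. The first 2 ranges include undifferentiated libraries, at 344.5 and 346.5 CPM in WT and 316.5 and 325.9 in W330R. On day 2 Dnmt3a was at 175.1 and 321.8 CPM in WT, 88.4 and 142.3 in W330R and 77.3 and 147.8 in W330R-R181E. On day 4 the values were 104.8 and 159.8, 87.4 and 136.8, and 68.5 and 120.9 CPM. On day 6 they were 111.5 and 149.1, 122.2 and 139.7, and 72.8 and 121.4 CPM. These counts do not check the alleles, which are not read from gene counts. The cells held the markers of their label. The 9 mesenchymal and stromal markers summed to between 2911 and 24631 CPM, and the 10 adipocyte markers to between 63.6 and 75.5 CPM in undifferentiated cells and between 1641 and 10324 CPM on days 2 to 6. Of other cell types, summed skeletal muscle markers reached at most 0.243 CPM, epithelial ones 5.67, osteoblast 8.05, leukocyte 16.6 and endothelial 24.1 CPM. The skeletal muscle markers Myod1, Myf5 and Ckm and Epcam, 1 of 4 epithelial markers, had no counts. The 5 chondrocyte markers summed to between 217.2 and 6624 CPM. The 5 smooth muscle markers summed to between 10.2 and 1244 CPM. The 2 libraries of an undifferentiated condition differed little, with a chi-square per degree of freedom of 3.40 in WT and 3.10 in W330R, against 29.3 to 103.4 on days 2 to 6. The column names of the undifferentiated libraries also follow another pattern, so that a batch and the step from undifferentiated cells to day 2 cannot be told apart.

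Among the 10 members, 4 were at or near the detection limit and were not tested. Bmp2, a ligand known for bone formation, had 0 counts in all 22 libraries, which allows up to 3 counts or 0.0583 to 0.347 CPM in a library. Bmp6 had 41 counts in all, 18 of them in 1 W330R-R181E day 6 library, and was at 0 in 11 libraries. Bmp7, a ligand known for brown fat formation, had 54 counts in all and at most 8 in a library, a WT undifferentiated one. Nog had 11 counts in all and at most 3 in a library. With exact 0 in 17 libraries for Nog, a difference between conditions was not detectable at this depth. The exons of Bmp6 overlap those of Txndc5 on the other strand, and the library kit does not mark strand, so that reads of the 2 genes cannot be told apart where they overlap.

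The other 6 members passed the filter on low counts, as did 14520 of the 30170 genes. Per kilobase of exon in the GENCODE annotation, Id1 (median 97.4 CPM per kb) and Id3 (97.6) were the most abundant members and did not differ beyond their spread, with ranges of 60.4 to 160.7 and 66.3 to 152.7. Id2 followed with 23.9 to 47.4 CPM per kb and a median of 30.1, below every library of Id1 and Id3. Bmp4 spanned 1.28 to 144.1 CPM per kb and Grem1 0.489 to 34.8, with medians of 10.2 and 1.95. Id4, with 0.0212 to 1.41 CPM per kb, had the lowest median of the 6 at 0.690, and its range overlapped those of Grem1 and Bmp4. Bmp4 alone of the 4 ligands, and Grem1 alone of the 2 antagonists, had reads above the limit in every library. Between the condition with the highest and the condition with the lowest mean CPM, Bmp4 differed 58.5-fold and Grem1 40.3-fold, against 2.00-fold for Id1, 1.77-fold for Id2 and 1.55-fold for Id3. In bulk RNA, fewer cells of a type and less RNA per cell cannot be told apart. Reads of Bmp4 overlap Gm15217 and reads of Id4 overlap A330033J07Rik and Gm49291 on the other strand.

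**Figure D1:**
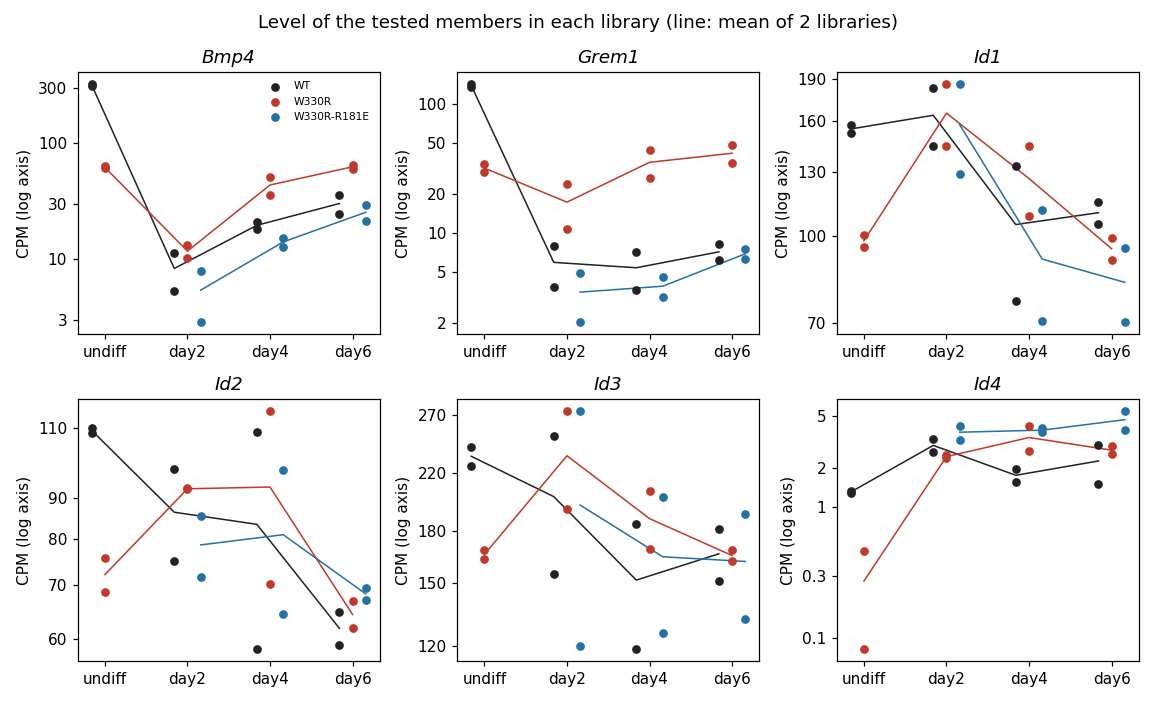
CPM (log axis, with its own range in each panel) of the 6 tested members by stage, where points are libraries, lines join means of 2 libraries and colours mark the genotype. Bmp4 and Grem1 of WT cells fell from 310.1 CPM or more and 136.0 CPM or more to at most 11.3 and 8.004 CPM on day 2, whereas Id1, Id2 and Id3 moved at most 2.00-fold between condition means.

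The first comparison asks how the ligand and antagonist stood before differentiation. In undifferentiated cells W330R had less Bmp4 and less Grem1 than WT. Bmp4 was at 324.0 and 310.1 CPM in WT and at 60.7 and 63.0 CPM in W330R. Grem1 was at 136.0 and 144.2 CPM in WT and at 29.6 and 34.2 CPM in W330R. For both genes the 2 W330R libraries lay below both WT libraries by far more than replicates differed. The log2 fold change (W330R minus WT) was -2.36 ± 0.37 (SE) for Bmp4 (adjusted p = 0.00489, edgeR quasi-likelihood test) and -2.13 ± 0.46 for Grem1 (adjusted p = 0.0347). These were 2 of the 6 members tested, where 1.75% of all genes passed. Id4 was at 1.32 and 1.29 CPM in WT and at 0.0817 and 0.463 CPM in W330R, the latter from 1 and 4 counts. Over both libraries these were 44 against 5 counts, a ratio of 5.44 with a 95% exact counting interval of 2.16 to 17.6, and the test missed the threshold (log2 fold change -2.36 ± 0.57, adjusted p = 0.0522). Id1 was at 157.4 and 152.4 CPM in WT and at 100.4 and 95.3 CPM in W330R, Id2 at 108.6 and 110.1 against 75.8 and 68.6, and Id3 at 241.4 and 225.5 against 168.0 and 163.1. The fitted differences of these 3 genes, -0.66, -0.60 and -0.50, did not pass (adjusted p = 0.329, 0.395 and 0.677). Summed smooth muscle markers were at 1240.2 and 1243.8 CPM in undifferentiated WT and at 665.5 and 696.0 CPM in W330R, and their part in these differences was not tested.

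The spread in these tests was shared over all conditions, and undifferentiated replicates were much closer than the others. When only the 4 undifferentiated libraries were fitted, all 6 tested members were lower in W330R, Id1, Id2 and Id3 with adjusted p = 4.59e-05, 1.67e-04 and 2.33e-04. That fit called 4194 of all genes, against 254 in the shared fit. Leaving out 1 library from the shared fit kept the size of the difference but ended calls: Bmp4 without W330R replicate 1 (-2.33, adjusted p = 0.1) or 2 (-2.38, 0.0736), and Grem1 without WT replicate 1 (-2.18, 0.169) or 2 (-2.09, 0.196) and without W330R replicate 1 (-2.03, 0.286) or 2 (-2.24, 0.22). Id4 passed without W330R replicate 2 (-3.90, adjusted p = 0.0435) and with DESeq2 (-2.40, adjusted p = 0.0440).

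On day 2 of adipocyte media Bmp4 was lower than in undifferentiated cells in both genotypes, and Grem1 in WT. In WT cells Bmp4 went from 324.0 and 310.1 CPM to 5.36 and 11.3 CPM on day 2, and Grem1 to 8.004 and 3.84 CPM. In W330R cells Bmp4 went from 60.7 and 63.0 CPM to 13.2 and 10.3 CPM, and Grem1 from 29.6 and 34.2 to 24.1 and 10.7 CPM. On day 2 the Bmp4 levels of WT and W330R overlapped, and both W330R libraries held more Grem1 than either WT library. Bmp4 fell in both genotypes, with a log2 fold change of -5.23 ± 0.42 in WT (adjusted p = 4.35e-07, edgeR) and of -2.40 ± 0.38 in W330R (adjusted p = 1.54e-04). Grem1 fell by 4.59 ± 0.52 in WT (adjusted p = 7.19e-06), and its difference of -0.88 ± 0.45 in W330R did not pass (adjusted p = 0.122). It passed without W330R day 2 replicate 1 (-1.58, adjusted p = 0.0326). Many genes changed at this step, 50.9% in WT and 48.2% in W330R, and 3 of 6 members passed in each genotype, so that the count of members stood near the background. The difference between the 2 steps (W330R minus WT) was 2.83 ± 0.52 for Bmp4 (adjusted p = 0.0147) and 3.70 ± 0.66 for Grem1 (adjusted p = 0.0119), 2 of 6 members at a background of 1.87%. Both steps contain the undifferentiated difference described above, as the same libraries enter both comparisons.

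No ID factor was called lower at this step, and Id4 rose in both genotypes. Id4, a family member known for promoting adipocyte differentiation, rose in WT from 1.32 and 1.29 to 2.64 and 3.30 CPM (log2 fold change 1.19 ± 0.44, adjusted p = 0.0347). In W330R it rose from 0.0817 and 0.463 to 2.51 and 2.36 CPM, from 5 to 109 counts over 2 libraries (ratio 10.1, 95% exact counting interval 4.21 to 31.8, adjusted p = 2.74e-04). The difference between the 2 steps did not pass (2.07 ± 0.71, adjusted p = 0.172). Id1 rose in W330R from 100.4 and 95.3 to 144.2 and 186.4 CPM (0.76 ± 0.28, adjusted p = 0.0370), whereas in WT it stood at 157.4 and 152.4 before and at 144.2 and 183.5 CPM after (0.08 ± 0.28, adjusted p = 0.830). Id2 and Id3 did not pass in either genotype, with differences from -0.34 to 0.50. The call of Id1 was lost without W330R undifferentiated replicate 1 (0.80, adjusted p = 0.111) or 2 (0.72, 0.147) or W330R day 2 replicate 2 (0.56, 0.211). That of Id4 in WT was lost without WT undifferentiated replicate 1 (1.20, 0.112) or 2 (1.17, 0.137) or WT day 2 replicate 2 (1.00, 0.157), and with no filter on low counts (1.18, 0.0648). Of the 9 mesenchymal and stromal markers, 8 fell and 1 rose at this step in each genotype, and of the 10 adipocyte markers 9 rose, and their part in the changes of Bmp4, Grem1 and the ID factors was not tested.

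**Figure D2:**
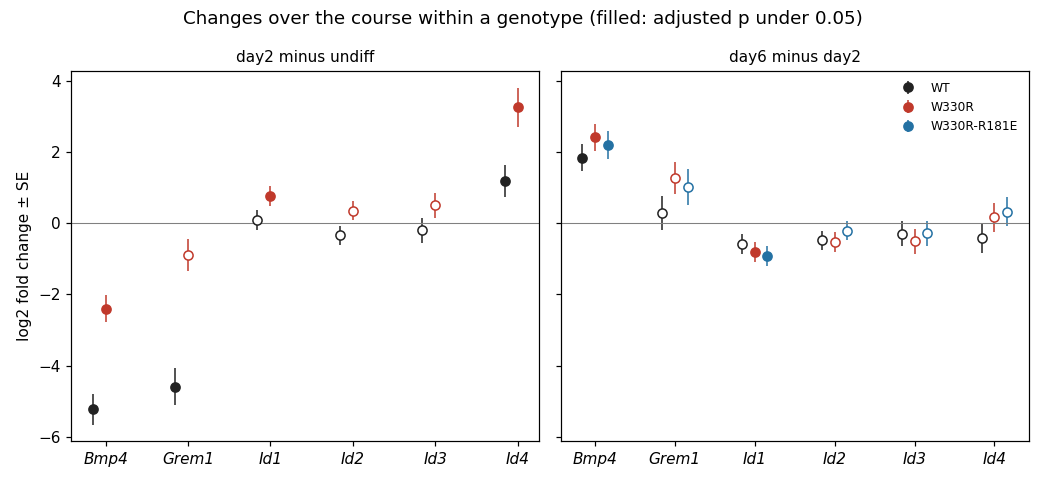
Log2 fold change ± SE of the 6 tested members from undifferentiated cells to day 2 (left) and from day 2 to day 6 (right), with filled points at an adjusted p under 0.05. Bmp4 lies at -5.23 in WT and at -2.40 in W330R in the left panel, and at 1.83 to 2.41 in all 3 genotypes in the right one.

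From day 2 to day 6 Bmp4 rose in every genotype. WT libraries went from 5.36 and 11.3 CPM over 20.8 and 18.4 CPM on day 4 to 36.1 and 24.4 CPM on day 6. W330R libraries went from 13.2 and 10.3 over 51.3 and 35.9 to 64.6 and 60.4 CPM, and W330R-R181E libraries from 2.87 and 7.97 over 12.9 and 15.4 to 29.4 and 21.4 CPM. On day 6 the W330R libraries lay within a few CPM of undifferentiated W330R cells (60.7 and 63.0), and the WT libraries far below undifferentiated WT cells (324.0 and 310.1). The log2 rise was 1.83 ± 0.38 in WT (adjusted p = 0.00304, edgeR), 2.41 ± 0.38 in W330R (adjusted p = 6.24e-04) and 2.19 ± 0.39 in W330R-R181E (adjusted p = 0.00181). Among all genes 26.6%, 25% and 23.2% passed in the 3 genotypes, against 1, 2 and 2 of 6 members. In a fit of only the 2 conditions compared, the Bmp4 rise missed the threshold in WT (1.85, adjusted p = 0.0501) and in W330R-R181E (2.23, adjusted p = 0.102). The Id1 difference below missed it in W330R-R181E (-0.91, adjusted p = 0.166). These fits called 1030 of all genes in WT and 80 in W330R-R181E, against 3862 and 3369 in the shared fit. Over the same days 7, 8 and 8 of the 9 mesenchymal and stromal markers rose in WT, W330R and W330R-R181E (medians 2.68, 2.29 and 2.59), as did 3, 4 and 3 of 5 smooth muscle markers, and their part in the Bmp4 rise was not tested. Grem1 stayed low in WT, at 8.004 and 3.84 CPM on day 2, 7.15 and 3.61 on day 4 and 8.17 and 6.12 on day 6. In W330R it stood at 24.1 and 10.7, 44.2 and 26.7, and 48.5 and 34.8 CPM on the same days, a difference of 1.27 ± 0.45 from day 2 to day 6 that missed the threshold (adjusted p = 0.0527). Alternatives that called it included leaving out day 2 replicate 1 (1.97, adjusted p = 0.0360), DESeq2 (0.0234), RLE scaling (0.0483) and no filter (0.0181). In W330R-R181E it stood at 4.93 and 2.03, 4.56 and 3.17, and 6.32 and 7.47 CPM (1.02 ± 0.51, adjusted p = 0.163).

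Id1, the classical early BMP target, fell in W330R and W330R-R181E over these days. It went in W330R from 144.2 and 186.4 CPM on day 2 to 99.2 and 90.3 on day 6 (-0.80 ± 0.28, adjusted p = 0.0479) and in W330R-R181E from 128.9 and 186.4 to 95.04 and 70.1 (-0.93 ± 0.28, adjusted p = 0.0282). In WT it went from 144.2 and 183.5 to 114.9 and 104.8 CPM, which did not pass (-0.58 ± 0.28, adjusted p = 0.140). The fall of Id1 in W330R was not called with RLE scaling (-0.78, adjusted p = 0.0555), nor without any 1 of the 4 libraries, that is day 2 replicate 1 (-0.98, adjusted p = 0.0762) or 2 (-0.60, 0.237) and day 6 replicate 1 (-0.83, 0.163) or 2 (-0.71, 0.227). In W330R-R181E the call was lost without day 2 replicate 2 (-0.62, 0.263) and without day 6 replicate 1 (-1.17, 0.0515) or 2 (-0.73, 0.158). Id2, Id3 and Id4 gave differences between -0.52 and 0.32 that did not pass in any genotype. A difference between genotypes in these day 2 to day 6 changes was not called for any member by edgeR or DESeq2, with 0 of 6 in each of the 2 comparisons also at an unadjusted p under 0.05. Among all 14520 genes edgeR called 13 between W330R and WT (0.0895%) and 0 between the double mutant and W330R (0%), with 975 and 596 at an unadjusted p under 0.05, and DESeq2 called 129 and 39. The intervals were wide: for Bmp4 the 95% interval of W330R minus WT was -0.53 to 1.69.

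During differentiation W330R cells held more Grem1 and more Bmp4 than WT cells, which is the reverse of undifferentiated cells. Over days 2 to 6 the 6 WT libraries had 3.61 to 8.17 CPM of Grem1 (median 6.64) and the 6 W330R libraries 10.7 to 48.5 CPM (median 30.7), with no overlap. Bmp4 ranged from 5.36 to 36.1 CPM in WT (median 19.6) and from 10.3 to 64.6 CPM in W330R (median 43.6), which overlapped. Averaged over the 3 days, an average chosen after seeing the data, Grem1 was 4.87-fold higher in W330R (log2 fold change 2.28 ± 0.28, adjusted p = 7.93e-05, edgeR, higher in 6 of 6 pairs of libraries) and Bmp4 1.86-fold higher (0.89 ± 0.21, adjusted p = 0.00621, higher in 5 of 6 pairs). Among all genes 29% passed in this average, against 2 of 6 members. No ID factor passed: the differences were 0.02 for Id1, 0.10 for Id2, 0.17 for Id3 and 0.32 for Id4, with 95% intervals that reach from -0.32 to 0.37 for Id1 and from -0.27 to 0.61 for Id3.

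The average over all 4 stages that the design gave first mixes the 2 directions. Grem1 passed with 1.18 ± 0.23 (adjusted p = 0.00305), 1 of 6 members at a background of 22.9%, and was higher in 6 of 8 pairs of libraries. Bmp4 was at 0.08 ± 0.18 (adjusted p = 0.814), where -2.36 in undifferentiated cells stands against 0.47, 1.15 and 1.05 on days 2, 4 and 6. At single days Grem1 passed on day 4 (2.73 ± 0.49, adjusted p = 0.00861) and on day 6 (2.55 ± 0.48, adjusted p = 0.00648) but not on day 2 (1.57 ± 0.48, adjusted p = 0.0912), where backgrounds were 6.14%, 7.54% and 3.06%. On day 2 edgeR called 0 of 6 members, with 1 at an unadjusted p under 0.05, and DESeq2 called 1, which was Grem1 (adjusted p = 0.0206). Grem1 also passed on day 2 with no filter on low counts (1.59, adjusted p = 0.0243). Bmp4 did not pass on days 4 and 6 (adjusted p = 0.0739 and 0.0916). Both days passed with DESeq2 (adjusted p = 0.0254 and 0.0428), which called 1700 and 1754 of all genes. On day 4 the Grem1 call was lost in a fit of only the 2 conditions (2.73, adjusted p = 0.0866), which called 0 of all genes. It was also lost without WT replicate 2 (2.31) or W330R replicate 1 (2.36). On day 6 the Grem1 call was lost without WT replicate 2 (2.34) or W330R replicate 1 (2.32). Averaged over days 2 to 6, Grem1 lay between 2.05 and 2.49 and Bmp4 between 0.75 and 1.11 without any 1 library, and both passed every time.

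**Figure D3:**
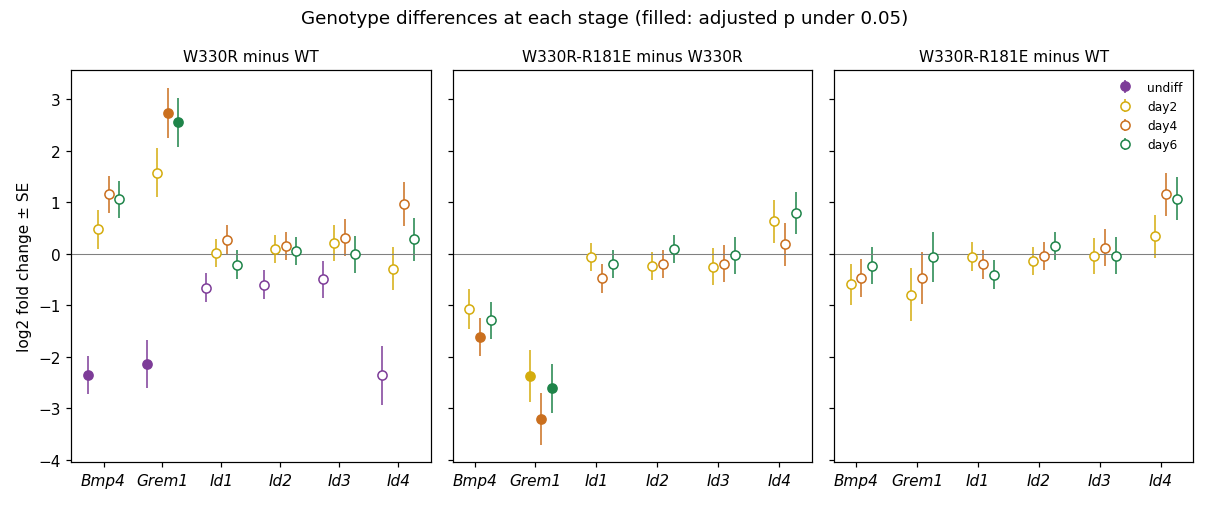
Log2 fold change ± SE of the 6 tested members for the 3 genotype comparisons, where colours mark the stage and filled points an adjusted p under 0.05. Bmp4 and Grem1 sit at -2.36 and -2.13 in undifferentiated W330R cells, and Grem1 at 1.57 to 2.73 on days 2 to 6, while the points of W330R-R181E minus WT stay between -0.79 and 1.15.

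The double mutant asks whether the R181E change alters what W330R does. Grem1 and Bmp4 were lower in W330R-R181E than in W330R on every day. Over days 2 to 6 Grem1 ranged from 2.03 to 7.47 CPM in the 6 double mutant libraries (median 4.74), below all 6 W330R libraries, and Bmp4 from 2.87 to 29.4 CPM (median 14.1). Grem1 was 6.61-fold lower (log2 fold change -2.72 ± 0.28, adjusted p = 3.81e-05, edgeR) and Bmp4 2.51-fold lower (-1.33 ± 0.21, adjusted p = 9.16e-04), each lower in 6 of 6 pairs of libraries. These were 2 of 6 members, where 17.2% of all genes passed. No ID factor passed. Id4 was the nearest with 3.28 to 5.44 CPM in the double mutant and 2.36 to 4.15 CPM in W330R (0.53 ± 0.24, adjusted p = 0.148), and Id1, Id2 and Id3 lay at -0.25, -0.12 and -0.16.

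By day, Grem1 differed by -2.36 ± 0.50 on day 2 (adjusted p = 0.0233), -3.20 ± 0.50 on day 4 (adjusted p = 0.00825) and -2.61 ± 0.48 on day 6 (adjusted p = 0.0211), with backgrounds of 2.67%, 1.91% and 1.5%. Bmp4 differed by -1.07 ± 0.39, -1.62 ± 0.37 and -1.29 ± 0.36 on the 3 days and passed on day 4 (adjusted p = 0.178, 0.0389 and 0.0947). On every day the 2 double mutant libraries lay below both W330R libraries for both genes. In a fit of only the conditions compared none of the 4 single-day calls was made (adjusted p = 0.0817 to 0.388). That fit called 0 of all genes on each of the 3 days. DESeq2 also called Bmp4 on day 6 (-1.29, adjusted p = 0.0172), where it called 674 of all genes. Leaving out 1 library ended the Grem1 call on day 2 (W330R replicate 1, -1.66, adjusted p = 0.204; W330R-R181E replicate 2, -1.81, 0.123). It ended that of day 4 (W330R replicate 1, -2.81, 0.0679; W330R-R181E replicate 1 or 2, -3.49, 0.102 or -2.97, 0.0707) and of day 6 (W330R replicate 1, -2.38, 0.143; W330R-R181E replicate 1 or 2, -2.48, 0.0950 or -2.72, 0.108). For Bmp4 on day 4 it was ended by W330R replicate 1 (-1.37, 0.324) or 2 (-1.87, 0.0643) and by W330R-R181E replicate 1 (-1.52, 0.292) or 2 (-1.77, 0.133), while Bmp4 passed on day 2 without W330R-R181E replicate 2 (-2.03, 0.0303).

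Against WT, no difference of the double mutant in Bmp4 or Grem1 was called, and Id4 was higher. Bmp4 was at a mean of 14.98 CPM against 19.4 CPM in WT over days 2 to 6 (-0.43 ± 0.22, adjusted p = 0.210, 95% interval -0.90 to 0.03), and Grem1 at 4.75 against 6.15 CPM (-0.44 ± 0.29, adjusted p = 0.342, 95% interval -1.06 to 0.17). Bmp4 was nonetheless lower in 6 of 6 pairs of libraries and passed without W330R-R181E day 2 replicate 2 (-0.74, adjusted p = 0.0302). Id4 was the 1 of 6 members that passed, at 3.28 to 5.44 CPM in the double mutant (median 3.95) against 1.51 to 3.30 CPM in WT (median 2.30), where 9.57% of all genes passed. It was 1.80-fold higher (0.85 ± 0.24, adjusted p = 0.0427, edgeR, higher in 6 of 6 pairs), and the groups overlapped at 1 WT library of 3.30 CPM. The call was not made with no filter on low counts (0.86, adjusted p = 0.0506) or in a fit of only these conditions (0.85, adjusted p = 0.107). Those fits called 1366 and 163 of all genes, against 1390 in the shared fit. At single days the differences of Id4 were 0.34, 1.15 and 1.06, and edgeR called 0 of 6 members on each day, as did DESeq2, with 0, 1 and 1 at an unadjusted p under 0.05, each time Id4 (unadjusted p = 0.0173 on day 4 and 0.0234 on day 6). Among all genes edgeR called 0%, 0% and 0.875% on these days, with 1300, 1637 and 2159 genes at an unadjusted p under 0.05, and DESeq2 called 110, 160 and 602 genes. The Id4 call in the average was lost in 9 of the 12 fits without 1 library, with adjusted p from 0.0611 to 0.131 and a log2 fold change of 0.72 to 0.92. These were the fits without WT day 2 replicate 1 (0.80) or 2 (0.92), WT day 4 replicate 2 (0.81), WT day 6 replicate 2 (0.72), W330R-R181E day 2 replicate 1 (0.90) or 2 (0.80), W330R-R181E day 4 replicate 1 (0.87) or 2 (0.84) and W330R-R181E day 6 replicate 1 (0.76). The W330R libraries enter both the comparison with WT and that with the double mutant, and the WT libraries both comparisons with WT, so that the 3 sets of values are not independent of each other.

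The lists of the rest of the pathway, 58 genes with 43 tested, followed the same comparisons. Between W330R and WT over 4 stages 10 were higher and 5 lower (34.9% of those tested, with a median of 0.09 against 0.01 over all genes). Between W330R-R181E and W330R 3 were higher and 15 lower (41.9%, median -0.19 against 0.01), and between W330R-R181E and WT 1 was higher and 3 lower (9.3%, median 0.01 against 0.00). Among all genes 11.2% were higher and 11.8% lower in the first of these averages, 7.87% and 9.36% in the second, and 4.46% and 5.12% in the third. The first average mixes stages: in undifferentiated W330R cells 1 was higher and 5 lower than in WT (14%, median -0.14, 1.75% of all genes). Over days 2 to 6, 9 were higher and 4 lower (30.2%, median 0.15, 29% of all genes). Pathway genes named below are compared between W330R and WT over 4 stages, and with W330R-R181E over days 2 to 6. Between W330R-R181E and WT, DESeq2 called 7 of the 43 and 2272 of all genes. A fit of only these conditions called 0 of the 43 and 163 of all genes.

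Among the feedback inhibitors, 6 of 7 were lower in W330R-R181E than in W330R: Smad6 and Smad7, the inhibitory Smads that BMP signalling induces (-0.64 and -0.48), the ubiquitin ligases Smurf1 and Smurf2 (-0.41 and -0.35), and the Smad co-repressors Ski and Skil (-0.71 and -0.38). The other one, the decoy receptor Bambi, was 2.22-fold higher, at a mean of 34.97 CPM against 15.7 (1.15 ± 0.16, adjusted p = 2.43e-04, edgeR, higher in 6 of 6 pairs). Bambi also passed against WT (21.2 CPM, 0.71 ± 0.15, adjusted p = 0.0140), a call lost without WT day 4 replicate 2 (0.66). The 6 lower calls were made in the average over days 2 to 6 only. At single days 0 of the 7 were called lower, and 1 was called higher on day 4 and on day 6. On the 3 days 2.67%, 1.91% and 1.5% of all genes passed. Between W330R and WT over days 2 to 6, 1 of the 7 was higher and 1 lower (median 0.13), where 29% of all genes passed.

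Of the 4 receptor-regulated and common Smads tested, Smad1 and Smad9 were higher in W330R than in WT (0.31 and 0.54) and Smad1 and Smad4 lower in W330R-R181E than in W330R (-0.29 and -0.21). The call of Smad9 (adjusted p = 0.0292) was lost in 9 of 16 fits without 1 library, with 0.42 to 0.57 (adjusted p from 0.0501 to 0.0814). These left out WT undifferentiated replicate 1 or 2, WT day 2, 4 or 6 replicate 2, W330R undifferentiated replicate 2, or W330R day 2, 4 or 6 replicate 2. Of 8 tested receptors and co-receptors, 2 were higher in W330R than in WT over 4 stages, and 1 over days 2 to 6. Over 4 stages Eng, the co-receptor endoglin, was at 29.8 CPM in W330R against 19.3 in WT (0.86 ± 0.19, adjusted p = 0.00632). Over days 2 to 6, 2 of the 8 were lower in W330R-R181E than in W330R. At single stages 0 of the 8 were called in either comparison. Of 10 other tested antagonists and modulators, 2 rose and 2 fell in W330R against WT. The extracellular modulator Bmper was lower in W330R with 20.1 CPM against 41.0 (-1.08 ± 0.14, adjusted p = 2.58e-04, lower in 8 of 8 pairs), and higher in W330R-R181E than in W330R on days 2 to 6 with 46.4 CPM against 25.2 (0.88 ± 0.16, adjusted p = 0.00188). Chrd, which encodes chordin, was lower in W330R-R181E than in WT (5.63 against 9.97 CPM, -0.80 ± 0.14, adjusted p = 0.00517). Nbl1, a DAN family antagonist, was lower in W330R-R181E than in W330R (-0.85 ± 0.23, adjusted p = 0.0215).

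Of 10 other ligands 2 were tested. Gdf5, known for joint formation, was higher in W330R-R181E than in W330R (3.95 against 2.08 CPM, 0.97 ± 0.26, adjusted p = 0.0217), and Gdf7 had 0 counts in all 6 double mutant libraries and 0 to 34 in the W330R libraries of days 2 to 6, which were 0, 23, 7, 8, 34 and 10 counts. In WT it had 3 counts in 1 undifferentiated and 16 in 1 day 2 library and none in the others. Hey1, a bHLH target, was lower in W330R than in WT over 4 stages (1.11 against 1.73 CPM, -0.71 ± 0.24, adjusted p = 0.0468). This call was lost in 14 of 16 fits without 1 library (-0.77 to -0.55), the exceptions being W330R undifferentiated replicate 2 and W330R day 4 replicate 2. It was also lost with no filter on low counts (adjusted p = 0.0926). Of the 7 other targets tested, 2 were lower and 0 higher in undifferentiated W330R cells, and 0 lower and 1 higher over days 2 to 6. Skil was lower in the double mutant than in WT (-0.46 ± 0.11, adjusted p = 0.0249). Of the 5 bHLH partners of ID proteins tested, Tcf3 and Twist2 were higher in W330R than in WT (0.41 and 0.35) and Twist1 and Twist2 lower in W330R-R181E than in W330R (-0.53 and -0.55). Other calls were lost without 1 library as well. For Gdf5 these were W330R day 2 replicate 1, W330R day 4 replicate 1 or 2, W330R day 6 replicate 1 and W330R-R181E day 2, 4 or 6 replicate 1 (0.77 to 0.98, adjusted p from 0.0503 to 0.0706). For Nbl1 they were W330R day 2 replicate 2, W330R day 6 replicate 1, W330R-R181E day 2 replicate 1 and W330R-R181E day 4 or 6 replicate 2 (-0.83 to -0.69, adjusted p from 0.0508 to 0.0729). For Skil against WT they were WT day 2, 4 or 6 replicate 2 and W330R-R181E day 2, 4 or 6 replicate 1 (-0.44 to -0.34, adjusted p from 0.0665 to 0.0949). The Gdf7 call was lost in 10 of 12 such fits, with W330R day 2 replicate 1 and W330R-R181E day 2 replicate 1 as the exceptions (adjusted p from 0.0510 to 1.00).

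**Figure D4:**
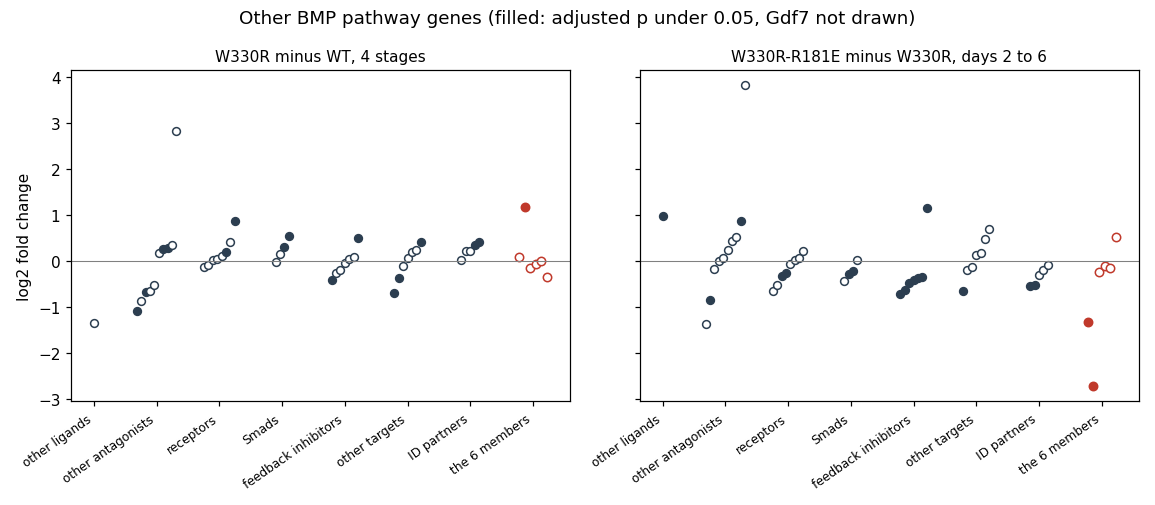
Log2 fold change of the other BMP pathway genes tested, by list (Gdf7 not drawn), and of the 6 members (red), with filled points at an adjusted p under 0.05. In the right panel 6 of 7 feedback inhibitors lie below 0 and Bambi at 1.15, beside Bmp4 at -1.33 and Grem1 at -2.72.

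Over the 11 condition means, Bmp4 and Grem1 rose and fell together (Pearson r = 0.89, a description over conditions that share libraries and depth), and less so over the 9 conditions of days 2 to 6 (r = 0.74). Bmp4 and Id1 did not (r = -0.17 over 11 and -0.62 over 9 conditions). The 3 broadly expressed ID factors went with each other, Id1 with Id3 most (r = 0.85), then Id2 with Id3 (0.78) and Id1 with Id2 (0.68), and Id4 with none of them (-0.03 to 0.05). Among the 11155 tested genes whose mean log2 CPM was 1 or more, those most like Bmp4 were Bcl2, Ak5 and Itgb5 (r = 0.98, 0.98 and 0.97), and those most like Grem1 were Clcf1, Sh3rf1 and C530008M17Rik (0.97 each). For Id1 they were Pus7, Arih2 and Cdkn2aip (0.94 to 0.95), for Id2 Bcl2l1, Nup35 and Rab11a (0.90 to 0.93), for Id3 Arih2, Htra2 and Rbm19 (0.90 to 0.92), and for Id4 Fam98c, Lipo1 and Ptk2b (0.93 to 0.95).

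Markers of the adipocyte course moved with these genotypes. Over days 2 to 6, 8 of the 10 adipocyte markers were lower in W330R than in WT, among them Cebpa (20.9 against 96.3 CPM, -2.21 ± 0.18), Adipoq (173.6 against 495.8, -1.23 ± 0.20), Fabp4 (1131 against 2546, -1.24 ± 0.27) and Pparg (40.1 against 62.9, -0.62 ± 0.16). Their sum ranged from 3193 to 10324 CPM in WT and from 1641 to 2896 CPM in W330R, and 5 of the 9 mesenchymal and stromal markers were higher in W330R. Between W330R-R181E and W330R, 4 adipocyte markers were higher, 1 was lower and 5 were not called (median 0.33), with Cebpa (0.66) and Adipoq (0.74) among the higher ones. At single days 1 of the 10 was higher and 1 lower on day 2, and 0 were called on day 4 or on day 6. In the average over days 2 to 6, 4 mesenchymal and stromal markers were lower. Between W330R-R181E and WT, 5 of the 10 adipocyte markers were lower and 0 higher (median -1.06), Cebpa among them (-1.54 ± 0.18). The sum of the 5 chondrocyte markers on days 2 to 6 was 217.2 to 2468 CPM in WT, 331.0 to 842.4 in W330R and 259.3 to 6624 in the double mutant. The 2 double mutant libraries stood far apart, at 259.3 and 2604 CPM on day 2, 1427 and 6005 on day 4 and 1927 and 6624 on day 6. Those of WT did so as well, at 510.6 and 2468 CPM on day 6. Between W330R-R181E and W330R, 2 of the 5 chondrocyte markers were higher. The part of these differences in those of Bmp4, Grem1 and Id4 was not tested.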

How the data were processed

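RNA-seq libraries were made from total RNA. The authors deposited raw read counts per gene symbol, without normalization, and the submitters' processing notes name kallisto, DESeq2 1.40 and GRCm39. The annotation is not given in the sources used here, and counts of kallisto are estimates that may have been rounded. No row lacked a gene name. The exact counting intervals of Id4 and the floor of 3 counts describe counting error alone, because PCR copies of a molecule are counted as separate reads. The 95% intervals of log2 fold changes come from the edgeR fit and include the spread between libraries. Depth is given with the results.

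Low genes were removed from the deposited counts by filterByExpr (minimum count 10, minimum total count 15), and the rest were tested with the quasi-likelihood test of edgeR 4.0.16 in R 4.3.3 after TMM scaling, in 1 fit of all 22 libraries with a mean per condition and a shared spread. Benjamini-Hochberg adjustment was over all genes tested, with a threshold of 0.05. SE is the log2 fold change divided by the root of the F statistic. A pair of libraries means the same stage and replicate number. Alternatives were DESeq2 1.42.0, RLE scaling, no filter, only the compared conditions, the replicate block and leaving out each library. Motifs, CpG sites and exon lengths were computed with Python 3.11.15. Named genes are the 10 members, the 2 largest increases and decreases among called genes of the other lists in each averaged comparison, 4 adipocyte markers, and the 3 genes most like each tested member. Other genes are named with their list, after their values were seen. The members and lists were chosen with earlier results of these data known.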

Additional observations from a re-analysis of the deposited data

Results flagged for a closer look

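The step from undifferentiated cells to day 2 differed between W330R and WT for 2 members, by a test of the difference itself (edgeR). For Bmp4 the difference between the steps was 2.83 on the log2 scale and for Grem1 it was 3.70. Both genes started lower in W330R and fell less. The undifferentiated libraries stand apart in column names and in replicate spread, and a batch cannot be told apart from the step within a genotype, although W330R and WT have libraries on both sides of it. Without 1 library, the Bmp4 call was lost for WT undifferentiated replicate 1 (2.80, adjusted p = 0.0578) or 2 (2.86, 0.0546), W330R undifferentiated replicate 1 (2.80, 0.0744) or 2 (2.85, 0.0718) and W330R day 2 replicate 1 (2.64, 0.0508). The Grem1 call was lost for WT undifferentiated replicate 2 (3.66, 0.0515), W330R undifferentiated replicate 1 (3.60, 0.0744) or 2 (3.81, 0.0586) and WT day 2 replicate 2 (3.27, 0.0594).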

How the results depend on the processing

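Of 706 log2 fold changes of members under the alternatives, 585 kept their direction and their side of the threshold, 65 lost and 25 gained a call, and 31 changed sign, none of them called in either fit. Limits are the 2 libraries per condition, the shared spread and counts near the floor for Id4. Averaging only days 2 to 6, added after seeing the data, gave 2 members called between W330R and WT, and Id1 at 0.024, Id2 at 0.10 and Id4 at 0.32. For W330R-R181E against WT, no filter and a fit of only these conditions each gave 0 members called, with 1366 and 163 of all genes called. At single stages 4 member and stage pairs were called between W330R and WT, against 8 with DESeq2, 7 with no filter and 7 with only the conditions compared. The latter fits called 4194 of all genes in undifferentiated cells and 0, 0 and 57 on days 2, 4 and 6. Fits of only the conditions compared gave 0 members for W330R-R181E against W330R at single days, and called 0 of all genes there. They also gave 0 members for day 6 against day 2 in WT and in the double mutant, with 1030 and 80 genes called. The labels do not say that a replicate number marks a shared culture, batch or day. Deviations of same-numbered libraries correlated over 0.1 in 27 of 55 pairs of conditions (-0.07 to 0.53), all 27 among the 36 pairs within days 2 to 6 (mean r 0.22). With the replicate block, Grem1 was also called between W330R and WT on day 2 (1.55, adjusted p = 0.0198), from undifferentiated to day 2 in W330R (-0.99, 0.0222) and from day 2 to day 6 in W330R (1.32, 0.00751), no member call was lost, and genes called over 4 stages went from 3329 to 4092. Over 4 stages, Id3 between W330R and WT was -0.0048 with DESeq2, -0.0048 with RLE scaling and -0.011 with only the conditions compared, and Id2 between W330R-R181E and WT was 2.69e-04 with no filter.

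Leaving out each library in turn gave these ranges of members called. Averages gave 1 to 1 for W330R against WT, 2 to 2 for W330R-R181E against W330R and 0 to 1 for W330R-R181E against WT. Single stages gave 2 to 4, 2 to 4 and 0 to 0. Day 2 against undifferentiated gave 2 to 3 in WT and 2 to 4 in W330R, day 6 against day 2 gave 1 to 1 in WT, 1 to 2 in W330R and 1 to 2 in W330R-R181E, the step difference gave 0 to 2, and both day 6 differences gave 0. Among values that changed sign without some library, the range over 4 stages was -0.0265 to 0.239 for Bmp4, -0.165 to 0.0564 for Id2 and -0.0742 to 0.0965 for Id3. Between W330R-R181E and W330R it was -0.237 to 0.00848 for Id2 and -0.379 to 0.00172 for Id3, and between W330R-R181E and WT -0.133 to 0.172 for Id2 and -0.211 to 0.171 for Id3. For Grem1 in WT from day 2 to day 6 it was -0.156 to 0.891.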
